A study of Mus musculus with 9 samples.

Results

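The normal newborn lens transcriptome was described from 3 of the 9 RNA-Seq pools of the study, namely all pools labelled FVB/N. FVB/N is an inbred albino mouse strain, and these animals were wild-type and carried no transgene. Lenses were taken at postnatal day 0, and each pool held 6 lenses from 3 mice, so a value is an average over pooled animals and gives no spread between single mice. The other 6 pools came from lines that express CRE recombinase in the lens and were not used here. Whole lenses were extracted, with the epithelium and the fibre cells together. In such bulk samples fewer cells of a type and less RNA per cell cannot be told apart. Total RNA had an integrity number of at least 8, and polyadenylated RNA purified from it was sequenced as single-end reads of 51 bases.

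The lens consists of a single sheet of epithelial cells on its anterior side and of fibre cells that form its bulk, all enclosed in a basement membrane, the capsule. Epithelial cells divide, leave the cell cycle near the equator and elongate into fibres, which fill with crystallins and later destroy their nuclei and other organelles. Crystallins are the soluble proteins that give the lens its refractive power. They fall into α-crystallins, which are small heat shock proteins, and the related β- and γ-crystallins.

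Levels are given as TPM (transcript abundance scaled for gene length and library size) wherever genes are compared with each other, and expected counts (reads assigned to a gene) are used for shares of the sequenced reads. Values are listed in the order pool 1, pool 2 and pool 3. The pools held total expected counts of 26959813, 23299676 and 25450719, so 3 counts corresponded to between 0.111 and 0.129 CPM (counts scaled to library size). Each pool was sequenced as a single library, so the spread among pools holds biological and technical differences together. Pool 3 stood apart from the others. Of 5126 genes with a mean of at least 10 TPM, 31 differed more than 2-fold between pools 1 and 2 in CPM normalised between pools, 88 between pools 1 and 3 and 94 between pools 2 and 3. Values are therefore given for each pool where pool 3 bears on them, and otherwise as mean ± SD over the 3 pools.

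The lens label was checked against marker genes. The crystallin genes and Mip, the water channel of lens fibres, stood at the top of every pool, and markers of the neighbouring eye tissues were near or at 0. For the cornea and surface epithelium, Krt5, Krt12, Krt14 and Trp63 had no count in any pool, and the 8 markers of that list summed to 0.49, 0.41 and 0.87 TPM. The 12 neural retina markers summed to 2.65, 2.71 and 1.83 TPM, with the photoreceptor genes Crx and Nrl both below 1 TPM. Macrophage and leukocyte markers summed to 1.58, 2.81 and 1.26 TPM and mesenchymal markers to 1.11, 2.86 and 3.35 TPM. Transcripts of these markers were thus low but not absent, and their part in the values of other genes was not tested. Haemoglobin transcripts were the most abundant of these markers, Hbb-bs at 53.6, 93.0 and 50.2 TPM and Hba-a2 at 30.2, 53.2 and 24.8 TPM, while the red cell membrane gene Slc4a1 had no count. All 8 endothelial markers were above 1 TPM on average, among them Pecam1 at 16.1, 15.3 and 30.7 TPM and Cldn5 at 11.8, 10.1 and 4.92 TPM. In pool 3 the former was highest and the latter lowest. The 7 markers of pericytes and smooth muscle summed to 13.15, 12.71 and 11.92 TPM, and 4 of them had a mean of at least 1 TPM. The 9 markers of pigment epithelium and melanocytes summed to 9.28, 17.86 and 8.27 TPM, and 4 of them had a mean of at least 1 TPM. Of these 9, the melanocyte genes Pmel (0.79, 3.60 and 0.48 TPM) and Dct (0.42, 2.76 and 0.13 TPM) were highest in pool 2. Other members held the larger part of the sum in each pool, whereas Rpe65 of the pigment epithelium had no count. Of 9 skeletal muscle markers, Actn2 alone exceeded 1 TPM, at 24.3, 32.8 and 23.4 TPM, and Myog had no count.

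**Figure D1:**
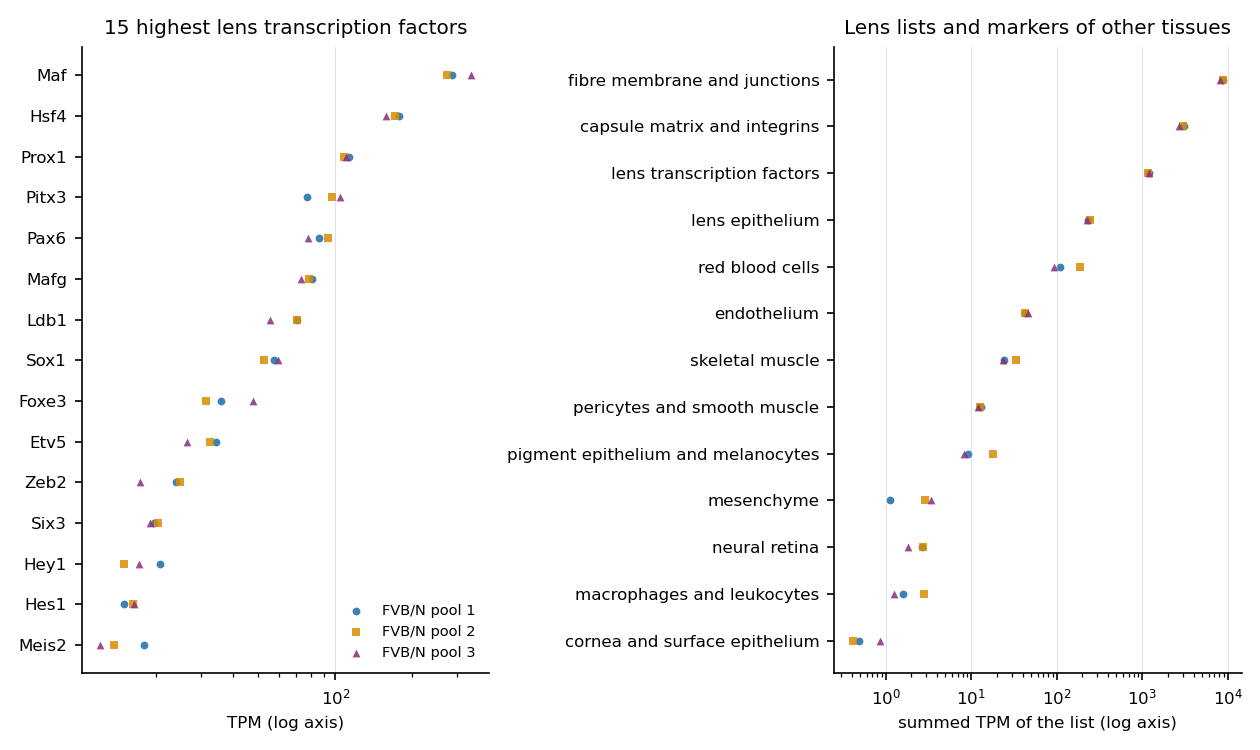
The left panel plots the TPM (log axis) of the 15 lens transcription factors with the highest mean. The right panel plots the summed TPM (log axis) of lens lists and of marker lists for other tissues. Each symbol is 1 FVB/N pool. Lens lists lie above 200 TPM in all pools and markers of cornea, retina, leukocytes and mesenchyme below 4 TPM.

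The pools also differed in sex-linked transcripts. Xist, the RNA that coats the inactive X chromosome of female cells, was at 72.2, 0.06 and 78.7 TPM. The Y-linked genes were present in all pools, Eif2s3y at 58.0, 80.5 and 42.1 TPM and Ddx3y at 15.1, 23.0 and 16.1 TPM. Pool 2 therefore combined the lowest Xist with the highest Y-linked level, and pools 1 and 3 contained both kinds of transcript.

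Crystallins made up most of the message. The 16 crystallin genes held 58.0%, 57.4% and 60.8% of TPM (58.7% ± 1.81, SD, n = 3) and 41.5% ± 1.34 of the expected counts. TPM divides by gene length and so weights short transcripts, such as those of β- and γ-crystallins, more than counts do. Counting error is negligible beside this, with a 95% Wilson interval of at most ± 0.0199 percentage points for a pool, and without pool 3 the share of counts was 40.8%. All of the 10 genes with the highest mean TPM, and 15 of the first 30, were crystallins.

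Cryaa, which encodes the chaperone αA-crystallin, was the highest gene in each pool, at 141375, 138695 and 133556 TPM (137875 ± 3973). It lies on chromosome 17 (GRCm38, chr17:31677807-31681733, plus strand). Its partner Cryab on chromosome 9 stood at 6939, 6125 and 5643 TPM, so that Cryaa exceeded it 20.4-, 22.6- and 23.7-fold. Both α-crystallin genes were highest in pool 1 and lowest in pool 3 in TPM.

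Among the 8 γ-crystallin genes, Cryga was at 99948, 99970 and 119290 TPM and Cryge at 73620, 73000 and 77351 TPM. Crygd was at 36069, 37163 and 42378 TPM and Crygb at 25553, 27102 and 31684 TPM. Crygc was at 19193, 19576 and 17694 TPM and Crygf at 12283, 13063 and 13710 TPM. These 6 genes encode the γ-crystallins of the dense fibre cytoplasm, and they alone held 26.7%, 27.0% and 30.2% of TPM. For Cryga, Cryge, Crygd, Crygb and Crygf the value in pool 3 lay above those of both other pools, and Crygc was lowest there. The more distant relatives Crygs (6698, 4806 and 5355 TPM) and Crygn (1925, 2059 and 2180 TPM) were far lower. Cryga exceeded Crygs 19.3-fold ± 3.89 (SD, n = 3).

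Of the 6 β-crystallin genes, Cryba1 was at 83145, 79723 and 85498 TPM, Crybb3 at 24611, 26846 and 24416 TPM and Crybb1 at 22526, 20663 and 24740 TPM. Cryba4 was at 11750, 11321 and 10607 TPM and Cryba2 at 10735, 11004 and 10933 TPM. Crybb2 was the lowest at 3889, 2801 and 2902 TPM, and Cryba1 exceeded it 21.4-, 28.5- and 29.5-fold. By family, γ-crystallins took 48.9% ± 1.83, β-crystallins 26.6% ± 0.414 and α-crystallins 24.6% ± 1.45 of crystallin TPM. Without pool 3 the γ share was 47.8%. In expected counts the mean shares were 37.5% for γ-, 36.9% for α- and 25.6% for β-crystallins. There the α share exceeded the γ share in pool 1 (38.1% against 36.1%) and pool 2 (37.7% against 36.8%), and pool 3 (34.9% against 39.6%) turned the order of the means.

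The order of the single crystallins was largely the same in each pool. Of 15 neighbouring pairs in the order of mean TPM, 11 did not overlap, meaning that each pool of the higher gene exceeded each pool of the lower. The 4 overlapping pairs were Crygb with Crybb3, Crybb3 with Crybb1, Cryba4 with Cryba2 and Cryab with Crygs. The coefficient of variation (CV, SD over mean of normalised CPM) ranged from 0.018 for Cryaa to 0.184 for Crybb2, with a median of 0.0815. Pool 3 was the pool farthest from the other two for 10 of the 16 genes, and for 7 of the 8 γ-crystallins, against 42.8% of the 5126 genes at 10 TPM or more.

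**Figure D2:**
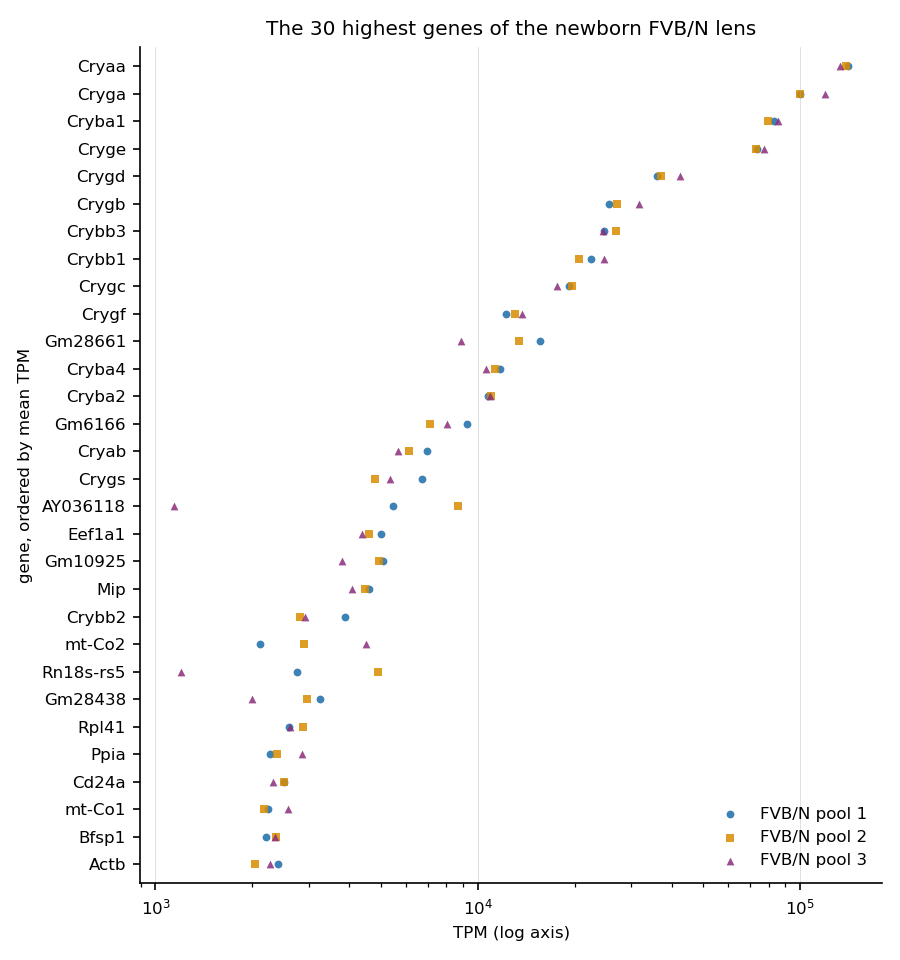
The 30 genes with the highest mean TPM, from top to bottom, with TPM in each FVB/N pool on a log axis. Crystallins fill the first 10 ranks with closely spaced pools, whereas AY036118 and Rn18s-rs5 range from 1143 to 8712 and from 1200 to 4911 TPM.

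Several γ-crystallins resemble each other at read length, which bears on how reads were divided between them. Cryga to Cryge lie within 54.8 kb of chromosome 1 (chr1:65048554-65103373, minus strand) and Crygf lies apart on the plus strand (chr1:65926520-65928307). Of the 51-base sequences of Cryge in the GENCODE M21 transcripts, 47.7% also occur in another gene, mostly Crygf and Crygd. The share was 31.6% for Crygf and 19.4% for Crygd, and all of these sequences occur in Cryge. It was 42.3% for Cryga, which is shared with the overlapping model Gm28845, 29.3% for Crygb and 22.1% for Crygc. Lower shares were found for Cryab (13.3%) and Cryaa (8.27%), and the share was 0 for the β-crystallins, Crygs and Crygn. The uncertainty RSEM (the program that assigned the reads) attached to its own count was nevertheless at most 0.208% of the count for any crystallin gene.

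The similarity extends into the promoters. The stretch from 60 bases before to 20 bases after the RefSeq transcription start is given for genes that represent the range of levels above, in the C57BL/6J reference sequence (GRCm38.p6) and not in FVB/N sequence. Capitals mark each TATA, the letters of the TATA box, which reads the same on both strands, within the 60 bases before the start.
Cryaa (chr17:31677871-31677950, plus strand): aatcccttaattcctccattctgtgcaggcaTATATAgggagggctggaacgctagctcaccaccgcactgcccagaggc
Cryga (chr1:65103344-65103423, minus strand): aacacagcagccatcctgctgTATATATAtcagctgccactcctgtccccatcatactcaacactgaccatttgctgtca
Crygb (chr1:65082271-65082350, minus strand): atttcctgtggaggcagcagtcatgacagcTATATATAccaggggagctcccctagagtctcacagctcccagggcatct
Crygc (chr1:65073513-65073592, minus strand): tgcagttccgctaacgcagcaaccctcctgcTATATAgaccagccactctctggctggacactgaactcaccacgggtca
Crygd (chr1:65063421-65063500, minus strand): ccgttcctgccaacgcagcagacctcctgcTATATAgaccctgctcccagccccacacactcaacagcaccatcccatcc
Cryge (chr1:65051144-65051223, minus strand): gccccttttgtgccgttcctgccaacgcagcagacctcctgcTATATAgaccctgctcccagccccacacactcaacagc
Crygf (chr1:65926462-65926541, plus strand): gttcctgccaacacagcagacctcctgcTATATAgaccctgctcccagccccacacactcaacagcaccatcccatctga
Cryba1 (chr11:77725274-77725353, minus strand): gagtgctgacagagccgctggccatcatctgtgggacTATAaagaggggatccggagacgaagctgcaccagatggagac
Crybb2 (chr5:113070098-113070177, minus strand): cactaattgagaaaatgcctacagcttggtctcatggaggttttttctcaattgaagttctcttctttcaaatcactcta
Crygs (chr16:22811391-22811470, minus strand): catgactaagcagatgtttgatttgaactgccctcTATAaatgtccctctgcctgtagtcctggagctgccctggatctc
Mip (chr10:128225750-128225829, plus strand): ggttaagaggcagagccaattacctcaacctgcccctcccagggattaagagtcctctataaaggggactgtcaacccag
The 6 γ-crystallin genes of chromosome 1 and Cryaa all held TATA in this window, with a repeated TATATA in each. Crybb2, Crybb3, Cryba2 and Mip did not hold these letters there. In both Cryba2 and Mip, however, the letters begin 3 bases before the annotated start and run across it. Cryba2 was not counted as holding them. Over 15 crystallin genes with a RefSeq promoter, 12 held TATA (80.0%), against 12.2% of 27025 mouse genes and 5.44% of 8237 protein-coding genes at 1 TPM or more in these lenses. Genes at 100 TPM or more held it in 13.6% of 396 cases, and the genes listed below for the fibre membrane and its junctions in 1 of 14. In the 300-base promoters the longest identical run between Crygd and Cryge was 78 bases, between Crygd and Crygf 64 bases and between Cryge and Crygf 55 bases. The runs shared by Cryga or Crygb with any of the others were at most 14 bases. Presence of these letters is a description of the sequence and was not tested as a binding site.

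The 20 genes listed for the fibre membrane and its junctions summed to 8836, 8761 and 8162 TPM. Cdh1, Gja1 and Aqp1 of this list also belong to the lens epithelium list, so the list is not restricted to fibres. Mip was at 4597, 4469 and 4089 TPM and Lim2, which encodes a fibre membrane protein, at 1073, 1107 and 1147 TPM. Gja3, which encodes the gap junction protein connexin 46, was at 387, 370 and 350 TPM. The 3 genes did not overlap in level, and the pools of each lay close together. The glucose transporter Slc2a1 reached 507 ± 61.5 TPM, the membrane adaptor Ank2 313 ± 13.5 TPM and N-cadherin (Cdh2) 139 ± 4.77 TPM. All 20 genes of this list exceeded 1 TPM and 9 exceeded 100 TPM. The aquaporins Aqp1 (2.87 ± 0.423 TPM) and Aqp5 (1.76 ± 0.123 TPM) were far below Mip. Mip carries a limit, because 57.0% of the 51-base sequences of the long noncoding gene Gm26847 occur in it and the library type does not mark strand. The sum of both genes was 5537, 5371 and 4977 TPM.

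The beaded filament of fibre cells is built from filensin (Bfsp1) and phakinin (Bfsp2). Bfsp1 was at 2202, 2361 and 2357 TPM and Bfsp2 at 182, 201 and 174 TPM, a ratio of 12.5 ± 0.977. Vim, the intermediate filament shared with the epithelium, was at 878, 848 and 721 TPM. Actb reached 2236 ± 185 TPM, Tuba1a 880 ± 8.76 TPM and the spectrin Sptan1 571 ± 41.8 TPM. Of 31 filament and cytoskeletal genes, 30 exceeded 1 TPM, and the exception was the neuronal tubulin Tubb3 at 0.59 ± 0.22 TPM.

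Other genes known from fibre differentiation were also high. Fabp5, a fatty acid binding protein, was at 1691, 1582 and 1558 TPM, and the cell cycle inhibitor Cdkn1c (p57) at 1536, 1398 and 1231 TPM. The RNA granule gene Tdrd7 reached 862 ± 33.8 TPM, Caprin2 533 ± 16.7 TPM and Hmgn3 433 ± 17.4 TPM. Dnase2b, the nuclease that degrades DNA in fibre nuclei, was at 50.3, 55.1 and 58.9 TPM, and the mitophagy receptor Bnip3l at 185, 192 and 157 TPM. The lectin-like Grifin reached 231 ± 11.8 TPM. Most of these genes varied little, and the exception was Lgsn (lengsin), at 0.21, 3.53 and 0.11 TPM. Its expected counts were 8.94, 122.59 and 4, so only pools 1 and 3 rested on few reads.

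Lens transcription factors were present at a small share, 0.119% ± 0.0013 of TPM for 30 genes, which was nearly the same in each pool. Maf, a direct regulator of crystallin genes, was the highest at 285, 272 and 337 TPM, followed by the heat shock factor Hsf4 at 178, 171 and 158 TPM. Prox1, needed for fibre elongation, was at 113, 108 and 110 TPM. Pitx3 was at 77.8, 97.4 and 104 TPM, Pax6, the master regulator of eye development, at 86.6, 93.8 and 78.4 TPM, and Mafg at 80.8, 78.6 and 73.7 TPM. Pitx3, Pax6 and Mafg thus overlapped in level, while Maf, Hsf4 and Prox1 were each separated from the next gene in every pool. Sox1 was at 57.7, 52.8 and 59.5 TPM and Foxe3, the factor of the lens epithelium, at 35.7, 31.3 and 47.5 TPM. Ldb1 reached 65.8 ± 8.73 TPM, Etv5 31.0 ± 4.17 TPM, Zeb2 22.0 ± 4.05 TPM, Six3 19.5 ± 0.68 TPM and Hey1 17.6 ± 2.91 TPM. Of the 14 neighbouring pairs among the 15 highest factors, 6 did not overlap. Sox2, which acts with Pax6 at lens induction, was at 8.53 ± 0.36 TPM and Gata3 at 7.62 ± 1.93 TPM. Nrl was among the lowest, with values of at most 0.04 TPM. In total 24 of the 30 factors exceeded 1 TPM and 3 exceeded 100 TPM.

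Transcripts of Hes1, Meis2, Etv1 and Tfap2a lay between 8.88 and 15.8 TPM on average, and those of Eya1, Pknox1, Meis1 and Mafk between 2.62 and 5.89 TPM. Lhx2, Sox11, Etv4 and Rax lay below 1 TPM on average. Maf overlaps the antisense gene Gm15655 (195 TPM on average), and 90.3% of the 51-base sequences of Gm15655 occur in Maf transcripts. Prox1os, annotated antisense to Prox1, was at 165, 167 and 158 TPM, and reads of a gene and of its antisense partner cannot be told apart here because the library type does not mark strand.

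Receptors and regulators of growth factor signals, which drive fibre differentiation, were mostly between 1 and 50 TPM. Sfrp1, a secreted WNT antagonist, was the highest of 29 genes at 332, 324 and 333 TPM. Among the FGF receptors, Fgfr3 was at 160, 166 and 133 TPM, Fgfr2 at 45.6, 48.8 and 41.0 TPM and Fgfr1 at 32.2, 35.4 and 31.2 TPM, without overlap between them, and Fgfr4 had no count. The Notch ligand Jag1 reached 116 ± 10.2 TPM, and the BMP receptor Bmpr1a 28.9 ± 2.14 TPM. The FGF feedback inhibitors Spry1 and Spry2 were at 16.6 ± 1.97 and 15.1 ± 1.77 TPM.

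Capsule genes were led by Sparc, a collagen-binding matrix protein, at 1251, 1211 and 985 TPM. The collagen IV chains Col4a1 and Col4a2 were at 376 ± 17.2 and 230 ± 17.2 TPM, with a ratio of 1.64 ± 0.059, while Col4a5, Col4a6, Col4a3 and Col4a4 lay between 10.2 and 53.7 TPM on average. The proteoglycan perlecan (Hspg2) reached 272 ± 7.96 TPM and Nid1 267 ± 11.1 TPM. The laminin chains Lamb1, Lamc1 and Lama1 were at 78.3 ± 0.737, 56.9 ± 2.25 and 26.3 ± 0.32 TPM. Of the integrins, Itgb1 was at 92.7 ± 4.94 TPM and Itga6 at 73.1 ± 6.53 TPM, and Itgb4 was below 1 TPM.

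The 8 genes of the lens epithelium list all exceeded 1 TPM, and none reached 100 TPM. E-cadherin (Cdh1) was at 36.2, 38.2 and 37.9 TPM and Pdgfra, the receptor through which the epithelium is stimulated to divide, at 31.0, 30.3 and 31.2 TPM. Gja1 (connexin 43) was less even, at 26.7, 38.1 and 17.7 TPM. Proliferation genes were present, with Top2a at 36.6, 37.1 and 36.0 TPM, Pcna at 28.2, 27.3 and 28.8 TPM and Cdk1 at 22.1, 20.3 and 23.3 TPM. The inhibitor Cdkn1c exceeded its relative Cdkn1b 47.6-, 48.5- and 32.9-fold.

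In TPM, several classes of general cell function held larger shares than the lens regulators, signalling and capsule genes. The order depended on the unit. In expected counts capsule genes held 0.980%, above the nuclear respiratory chain (0.631%), glycolysis and polyol (0.614%), proteasome and ubiquitin (0.386%) and antioxidant genes (0.371%). They stayed below translation factors (1.79%), ribosomal proteins (1.60%) and chaperones (1.14%). The 80 cytosolic ribosomal protein genes held 2.86% ± 0.058 of TPM, led by Rpl41 at 2593, 2872 and 2619 TPM, and 34 translation factors held 1.32% ± 0.051, led by Eef1a1 at 5003, 4614 and 4361 TPM. Chaperones held 0.983% ± 0.0034, with Ppia at 2502 ± 308 TPM, Hsp90ab1 at 1620 ± 20.4 TPM and Hsp90aa1 at 981 ± 153 TPM. Nuclear genes of the respiratory chain held 1.08% ± 0.017, with Atp5b at 799 ± 20.5 TPM. Glycolysis and polyol genes held 0.521% ± 0.043, with Gapdh at 1402 ± 191 TPM, Eno1 at 776 ± 33.4 TPM and the brain-type aldolase Aldoc at 407 ± 49.7 TPM. Of the 20 genes in this list, 11 reached 100 TPM, as did 631 of the 12182 genes at 1 TPM or more. Other lists lay on both sides, with 61 of 80 cytosolic ribosomal protein and 24 of 34 translation factor genes. For the nuclear respiratory chain it was 34 of 86 and for proteasome and ubiquitin genes 15 of 33. Antioxidant and metal-binding genes held 0.422% ± 0.0094, with the ferritin subunits Ftl1 (1474 ± 119 TPM) and Fth1 (386 ± 17.6 TPM) and the peroxidase Gpx1 (617 ± 83.1 TPM). Proteasome and ubiquitin genes held 0.372% ± 0.014, with Psmb4 at 294 ± 18.0 TPM. Cholesterol synthesis held 0.0511% ± 0.0020, with Fdps at 90.2 ± 11.6 TPM. That share was below those of lens transcription factors (0.119%), signalling (0.0852%) and capsule genes (0.294%).

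Beyond the lists, several protein-coding genes were as high as these. Cd24a, a surface glycoprotein, was at 2500, 2509 and 2315 TPM, and Gnas, an imprinted G protein subunit gene, at 1217, 1210 and 1380 TPM. The calpain Capn3 was at 1111, 1005 and 853 TPM and Lenep, a lens epithelial protein gene, at 636, 640 and 636 TPM. The secreted chaperone gene Clu was less even, at 1298, 786 and 576 TPM. The remaining protein-coding genes, 21719 in number, together held 19.9% ± 0.556 of TPM and 38.5% of the expected counts.

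**Figure D3:**
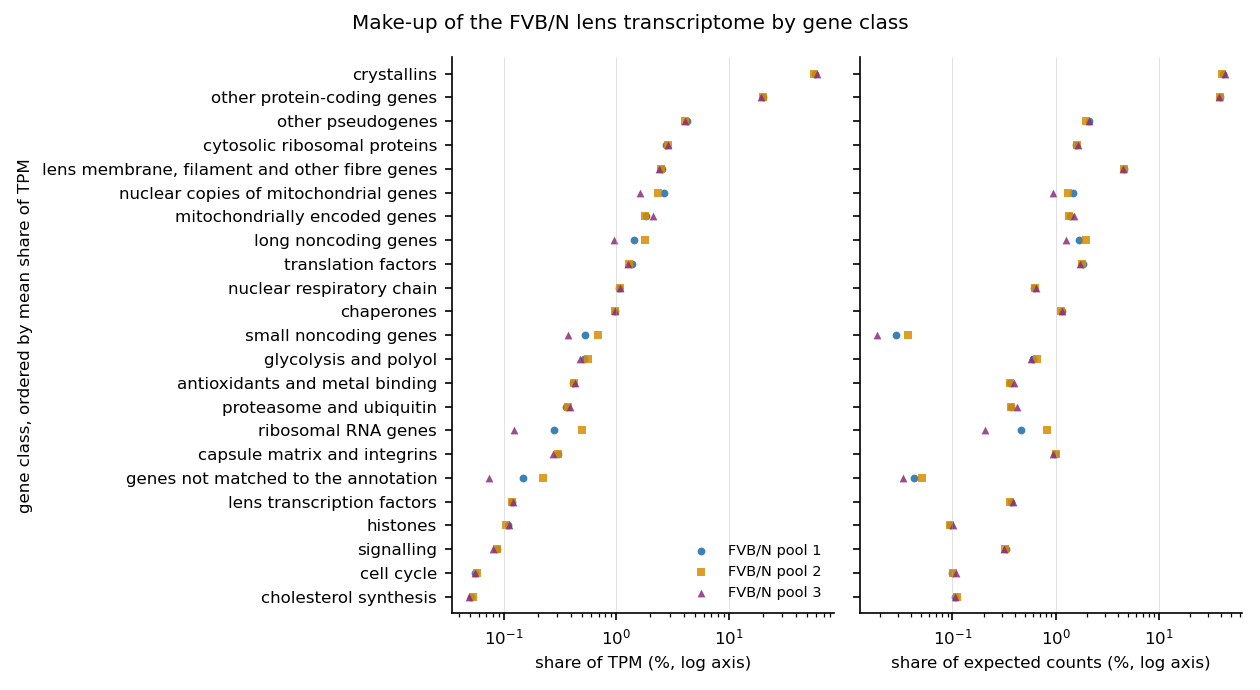
Share of TPM (left) and of expected counts (right) held by each gene class, on log axes, with 1 symbol per FVB/N pool; each gene is in a single class. Crystallins hold 58.7% of TPM and 41.5% of counts on average, and the pools separate most for ribosomal RNA, noncoding and unmatched genes and for nuclear copies of mitochondrial genes.

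Histone, imprinted and fast-responding genes were also examined. Of 77 histone genes, 26 exceeded 1 TPM, led by the replacement histone H3f3a at 346 ± 24.2 TPM, and 22 had no count. Most replication-dependent histone messages lack a poly(A) tail and are missed by selection for it. Of 22 imprinted genes, 18 exceeded 1 TPM, among them Cdkn1c, Gnas, Meg3 (332 ± 18.2 TPM), H19 (224 ± 5.98 TPM) and Igf2 (58.3 ± 5.68 TPM). Immediate early genes, which respond within minutes to handling and other stimuli, were low, with Dusp1 at 13.5 ± 1.03 TPM, Jun at 7.36 ± 0.996 TPM and Egr1 at 0.56 ± 0.19 TPM. The highest clock gene was Cry2 at 23.1 ± 3.95 TPM.

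Mitochondrially encoded genes require their nuclear copies to be considered with them. The 37 genes of the mitochondrial chromosome held 1.83%, 1.81% and 2.12% of TPM, highest in pool 3. RSEM assigned a share of similar size to nuclear pseudogenes that match them, with 9 such genes holding 2.64%, 2.37% and 1.63% of TPM, lowest in pool 3. Where gene and copy share sequence, these values show how reads were divided and not whether a copy is transcribed. The pair with the most reads was mt-Co2, a subunit of cytochrome c oxidase, at 2117, 2900 and 4514 TPM, and its copy Gm28661 on chromosome 1 at 15611, 13474 and 8881 TPM. All 51-base sequences of Gm28661 occur in mt-Co2, and RSEM's own uncertainty reached 29.4% of the count for mt-Co2. For mt-Atp6 (134, 58.9 and 551 TPM) and Gm10925 (5072, 4929 and 3780 TPM) the division between gene and copy varied more between pools, and RSEM's own uncertainty reached 567% of the count for mt-Atp6. Added together, mitochondrial genes and copies held 4.47%, 4.19% and 3.75% of TPM, which is lowest in pool 3. Pool 3 was thus the highest pool for the mitochondrial genes alone and the lowest once the copies were added.

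Other pseudogenes and noncoding genes were ranked by mean TPM. Pseudogenes of all kinds held 6.91%, 6.49% and 5.72% of TPM, and 480 of 9649 exceeded 1 TPM. The highest processed pseudogene was Gm6166, at 9275, 7126 and 8041 TPM, above its parent Fabp5 by 5.05-fold ± 0.499 (SD, n = 3). This value is uncertain, since 50.1% of the 51-base sequences of Gm6166 occur in Fabp5. Ribosomal protein copies such as Rpl39-ps (1336 TPM on average), Gm12013 (967 TPM) and Gm14303 (944 TPM) and the ubiquitin copies Gm1821 (1292 TPM) and Gm8797 (2113 TPM) share sequence with their parents in the same way. Among long noncoding genes the nuclear RNA Malat1 was at 542, 724 and 423 TPM, the growth-arrest RNA Gas5 at 481, 487 and 305 TPM and Gm26825, which shares 81.5% of its 51-base sequences with the chaperone gene Hspa8, at 430, 362 and 254 TPM. In total 699 of 9355 long noncoding genes exceeded 1 TPM.

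The transcriptome was strongly concentrated. Without regard to class, 8 genes were enough to hold 50% of the mean TPM, 163 to hold 75% and 1667 to hold 90%. By pool the number for 50% was 8, 8 and 7. The 10 highest genes held 54.8% of TPM. With crystallins left out, 301 genes were needed for 50%. In expected counts 44 genes held 50%.

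**Figure D4:**
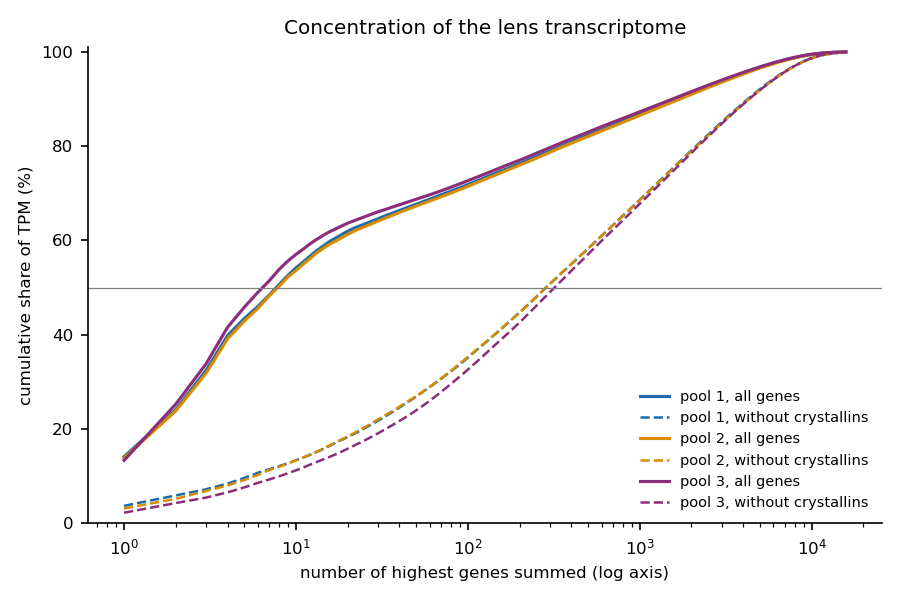
Cumulative share of TPM (%) against the number of highest genes summed (log axis) for each FVB/N pool, with all genes (solid) and without crystallins (dashed). The grey line marks 50%, which is reached with 8, 8 and 7 genes and, without crystallins, with 286, 286 and 320 genes.

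Of 47729 genes listed, 12182 had a mean of at least 1 TPM, 10637 of them protein-coding. Only 13 genes exceeded 10000 TPM, and 43 lay between 1000 and 10000, 575 between 100 and 1000, 4495 between 10 and 100 and 7056 between 1 and 10 TPM. The 7056 lowest of these held 3.01% of TPM. No count was found in any pool for 23191 genes, which does not show their absence, since transcripts under about 0.129 CPM could be missed. Counted in every pool, 11231 genes had at least 1 TPM. By chromosome, 33.1% ± 1.44 of TPM came from chromosome 1, which carries Cryga to Crygf and Cryba2, followed by chromosome 17 with Cryaa, at up to 16.7% in a pool, and by chromosome 11 with Cryba1 at 11.6% ± 0.253.

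The spread among pools was small for most genes. Over 13783 genes that passed the count filter, the common biological coefficient of variation was 0.144, and it was 0.116 without pool 3. Among the 5126 genes at 10 TPM or more the median CV was 0.066, against 0.030 from counting error alone. For the 631 genes at 100 TPM or more the median CV was 0.068. A CV above 0.25 was found in 275 genes (5.36%), and in 162 when pool 3 was left out. Of these 275, pool 3 was the pool farthest from the other two in 171 (62.2%), against 42.8% of all 5126 genes. Protein-coding genes passed this limit in 102 of 4721 cases (2.16%), pseudogenes in 79 of 204 (38.7%), long noncoding genes in 28 of 108 (25.9%) and small noncoding genes in 63 of 82 (76.8%).

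**Figure D5:**
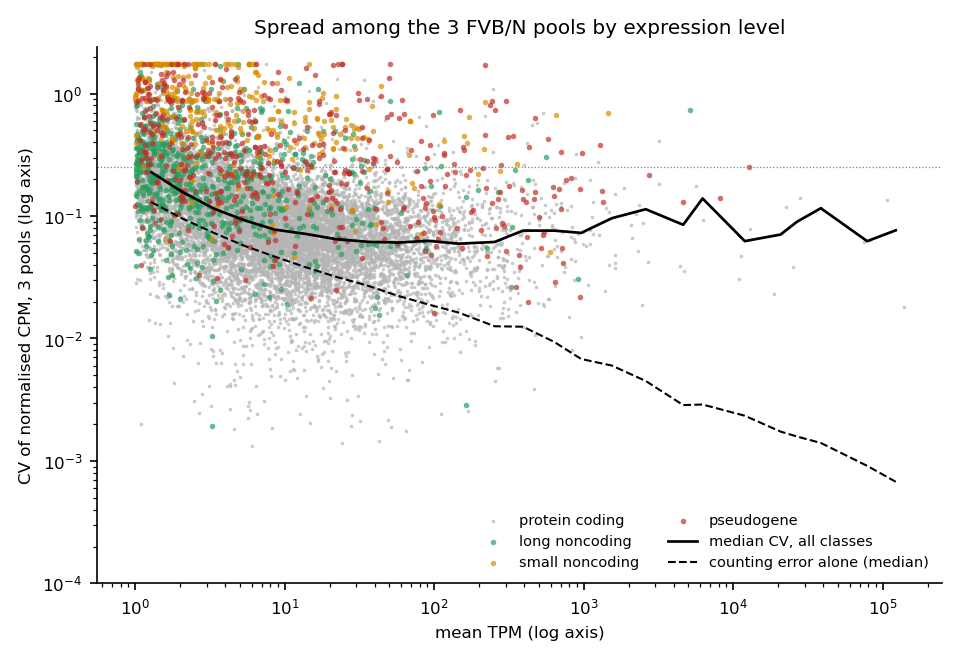
CV of normalised CPM over the 3 FVB/N pools against mean TPM for genes at 1 TPM or more, both on log axes, coloured by gene class. The solid line is the median CV and the dashed line the median from counting error alone; the dotted line marks 0.25. From 10 to 1000 TPM the median CV changes little while counting error falls, and pseudogenes and small noncoding genes make up much of the cloud above 0.25.

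The genes with the lowest CV among those at 100 TPM or more were the phosphatase subunit Ppp1ca (112, 113 and 107 TPM), Pdlim7 (170, 174 and 162 TPM), Prox1os, the ribosomal protein gene Rpl8 (470, 478 and 449 TPM), the cytochrome oxidase gene Cox5a (256, 258 and 246 TPM), Ssx2ip, the tubulin Tubb5 (270, 275 and 262 TPM), Srsf5, mt-Nd5 and the amino acid transporter Slc7a5. Their CVs lay between 0.0024 and 0.0089, below the counting error for all but mt-Nd5 and Slc7a5. They are the lowest of 631 values, each from 3 pools.

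The 20 genes with the highest CV were 10 pseudogenes, 4 protein-coding, 4 small noncoding and 2 long noncoding genes. Gm12671 and Gm10359, copies of Gapdh, were listed at 0, 0 and 72.2 TPM each, and Rps15a-ps8 at 0, 0 and 152 TPM. Gm15772, which shares 73.7% of its 51-base sequences with Rpl26, was at 1.45, 0.97 and 654 TPM, while Rpl26 was at 631, 677 and 156 TPM. Their sum in normalised CPM had a CV of 0.061, against 1.72 and 0.578 for each alone. In the same way Vcp (99.2, 105 and 57.8 TPM) and its copy Vcp-rs (0.32, 0 and 63.1 TPM) had CVs of 0.270 and 1.72, and their sum 0.044. In both pairs pool 3 stood apart for the parent and for the copy while the sum varied little. For Gps1 and Gm9816 pool 2 was the one that stood apart, where Gps1 was at 134, 86.6 and 115 TPM and the copy at 0, 42.3 and 5.84 TPM, with a CV of 0.049 for the sum. For Ubb with Gm1821 and Gm8797 the sum had a CV of 0.060 and Ubb alone 0.556. Other sums were not more even than the parent alone, with CVs of 0.121 for Gapdh with Gm10359 and Gm12671 against 0.115 for Gapdh, 0.0995 for Rpl38 with Rpl38-ps2 against 0.0821 for Rpl38, and 0.116 for Fabp5 with Gm6166 against 0.0415 for Fabp5. Across all genes, 10 genes with at least 100 counts in both other pools had less than 1 count in pool 3, all 10 of them pseudogenes, and 11 genes had at least 100 counts in pool 3 alone, 8 of them pseudogenes. The corresponding numbers were 2 and 0 for pool 1 and 0 and 2 for pool 2.

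The remaining genes among those 20 were Gm26268, Rpl38-ps2, Gm9104, Gm4204, Snord2, AI506816, CAAA01205117.1, mt-Atp6, Gm15758, Gm2026, Eif5al3-ps, Gm28010, Mid1 and Cwc22. Gm2026 shares 98.4% of its 51-base sequences with other genes and Gm4204 87.8%, in that case with Nap1l1. Mid1, an X-linked ubiquitin ligase gene, was at 5.70, 56.9 and 4.65 TPM, high in pool 2. Cwc22, a splicing factor gene, was at 9.92, 9.76 and 81.4 TPM, high in pool 3. Mid1 shares 28.6% of its 51-base sequences with other genes and Cwc22 18.2%. RSEM's own uncertainty was at most 1.34% of the count for Mid1 and 1.17% for Cwc22.

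A further look, at a rule chosen after the values were seen, was restricted to 4464 protein-coding genes at 10 TPM or more for which RSEM's uncertainty was under 2% of the count in each pool. A pool was taken to stand apart for a gene when it differed from the mean of the others by more than 0.6 on the log2 scale and the others were within 0.25 of each other. This held for 2 genes in pool 1 (0.0448%), for 5 in pool 2 (0.112%) and for 35 in pool 3 (0.784%), of which 21 were higher and 14 lower there. Cwc22 differed most, by 3.24, followed by Scfd2, a vesicle transport gene (7.78, 7.50 and 41.7 TPM), and by the adaptor gene Sh3kbp1 (20.8, 17.7 and 5.60 TPM) in the opposite direction. The actin regulator Coro2b was at 49.8, 48.3 and 138 TPM, the nuclear receptor gene Rorb at 11.9, 12.9 and 27.4 TPM and the glycine-cleavage gene Gldc at 18.2, 16.9 and 36.9 TPM. Of the 35 genes, 10 lie on chromosome 11, which carries 9.10% of the genes examined. Chromosome 11 was singled out after the list was seen, other chromosomes were not counted, and the excess was not tested. Its genes include Rnf187 (118, 121 and 60.7 TPM), Rtn4 (87.4, 89.1 and 46.8 TPM), Ccdc117 (25.3, 26.4 and 45.7 TPM) and Pecam1. In pool 1 the genes were Npl and Clu, and in pool 2 Mettl23, Sptb, Fgf12, Fam114a1 and Usp11.

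A separate group of features followed another order, highest in pool 2 and lowest in pool 3. AY036118, whose 51-base sequences all recur in Gm42418, was at 5459, 8712 and 1143 TPM, and Rn18s-rs5, an 18S ribosomal RNA sequence, at 2745, 4911 and 1200 TPM. Mir6240 (1510, 2447 and 403 TPM), Gm15662 (1107, 1901 and 369 TPM), Mir6236 (164, 288 and 61.1 TPM) and Lars2, the gene of the mitochondrial leucyl-tRNA synthetase (557, 900 and 141 TPM), showed the same order. Their CVs lay between 0.611 and 0.730. Gm42418 itself did not share this order, at 7.89, 7.57 and 5.53 TPM with a CV of 0.160. Ribosomal RNA carries no poly(A) tail, and the genes of the ribosomal RNA class held 0.820% of the expected counts in pool 2 and 0.205% in pool 3. Nearly all of this was Rn18s-rs5 itself (0.8196% and 0.2047%), so the class share is not a separate observation. The part of RNA selection in these values was not tested.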

How the data were processed

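RNA-Seq was carried out on the 3 wild-type FVB/N pools, and only these were analysed. Per the labels and the study's methods, the authors trimmed reads with Trimmomatic 0.36, aligned them with GSNAP to the GRCm38 mouse genome, which is C57BL/6J sequence, and quantified genes with RSEM 1.3.0. The GSNAP version and the gene annotation version are not given in the sources used here. The authors deposited expected counts (estimated reads per gene) and TPM values. Pools held between 23299676 and 26959813 expected counts.

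Groups and replicate numbers came from the sample titles. The description code of pool 3 carries another number than its title, and the title was used. The members and lists were chosen with earlier results of these data known. Shares, ranks and sums were computed from TPM and expected counts. Expected counts were rounded and normalised by TMM with edgeR 4.0.16 in R 4.3.3, with filterByExpr, to give the CV and the biological coefficient of variation, after checks on simulated data. Of 47729 genes, 47310 matched GENCODE M21 by identifier, which gave positions, classes and the 51-base sequences shared between genes. Promoters came from RefSeq. Other steps used Python 3.11.15. Genes were named by rule: the 30 highest, all crystallins and lens transcription factors, up to 6 leading members of other lists and members at 0, the 20 most and 10 least variable genes, the 10 highest long noncoding genes and pseudogenes, Xist and Y-linked genes. Further genes, such as list members below the leading 6, Capn3, Clu and those for which 1 pool stood apart, were named after their values were seen. Some items that this rule names are not reported here. No test between groups was made. Intervals and the limit of 3 counts cover counting error only, since reads carried no molecular identifiers. Alternatives were the unit, filters, thresholds, scaling and each pool left out.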

Additional observations from a re-analysis of the deposited data

How the results depend on the processing

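The unit moved most shares. In TPM the crystallin share was 58.7% against 41.5% of expected counts. In expected counts the γ share of crystallins was 37.5%, the mitochondrially encoded share 1.40%, the ribosomal protein share 1.60% and the share of the 10 highest genes 38.9%, and 44 genes held 50%. Of 20 other class shares, 19 moved by more than 1 SD between units, 13 being higher and 7 lower in counts. Adding nuclear copies, an alternative chosen after seeing the data, gave a mitochondrial share of 4.13%. Without crystallins 301 genes held 50% of TPM. The biological coefficient of variation was 0.224 with all genes above 0, 0.202 with a mean count of at least 10, and between 0.116 and 0.168 with 1 pool left out, lowest without pool 3. The number of genes with a CV above 0.25 was 480 at 5 TPM or more and 170 at 20 TPM or more, and between 162 and 320 with 1 pool left out, lowest without pool 3. A CV above 0.5 was found in 99 genes. Leaving out 1 pool kept the crystallin share of counts between 40.8% and 42.1%, the γ share between 47.8% and 49.6% and the number of genes at 1 TPM or more between 12075 and 12236. No paired analysis was possible because only 1 group is described. With 3 pools of pooled animals, the SD is itself imprecise, and the values do not separate animals from library preparation.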
